A study of Mus musculus with 24 samples.

Results

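The cytoplasmic experiment consisted of 4 sequencing libraries among the 24 of the series, all from NIH3T3, a mouse embryonic fibroblast line. The 4 groups were the cytoplasmic pulldown with a miR-29b mimic, the cytoplasmic pulldown with a scrambled mimic, the cytoplasmic input with the miR-29b mimic and the cytoplasmic input with the scrambled mimic, with 1 library in each. They were picked by their label as cytoplasmic RNA, and the table that holds them gave counts for 11568 genes. Every library came from transfected cells: both mimics contained 3-cyanovinylcarbazole (CNVK), a nucleoside that crosslinks to the facing strand of a duplex under light, and were given at 10 nM. Cells received more medium after 24 h and were collected 8 h after that, and each cytoplasmic library was made from 5 ng of RNA with random hexamer and oligo-dT primers. The series also holds 4 nuclear libraries of the same design and 16 whole-cell libraries in 4 groups of 4, which serve here only for comparison.

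A microRNA guides Argonaute proteins to messenger RNAs, mostly through pairing between its seed (bases 2 to 8) and sites in the untranslated region after the coding sequence, and bound messengers are repressed and often degraded in the cytoplasm. The miR-29 family is known for collagens and other matrix genes, for the survival factor Mcl1 and for enzymes that write and remove DNA methylation. A pulldown of a crosslinked mimic recovers RNA that was near the mimic, together with RNA held back without the mimic's sequence, for which the scrambled mimic is the control.

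The mature sequences of the family are shown because the mimic shares its seed with its relatives, and the deposited table marks sites for that seed. RefSeq (GRCm38.p6) held all 3 mature family members, with a single seed between them, which stands in capitals:
miR-29b-3p: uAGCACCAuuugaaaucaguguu
miR-29a-3p: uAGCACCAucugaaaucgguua
miR-29c-3p: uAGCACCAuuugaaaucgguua
The miR-29b-3p sequence of 23 bases is encoded at 2 loci, chr1:195037091-195037113 on the plus strand and chr6:31063025-31063047 on the minus strand. An 8mer site for the family reads UGGUGCUa, in which the capitals pair with the seed and the last base is the adenine opposite base 1 of the microRNA. The scrambled mimic's sequence is not used here.

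The cytoplasmic libraries had 13089530 listed counts in the miR-29b pulldown and 5320421 in the scrambled pulldown, against 18181680 in the miR-29b input and 20142591 in the scrambled input. The scrambled pulldown stood apart from the other 3 libraries. Its listed genes made up 48.7% of the authors' library total, against 78.4% to 78.9% in the others. A single gene, Gm26924, took 36.1% of its listed counts, against 18.9% to 24.8%. For each gene group below the value for the miR-29b pulldown over its own input, which does not use that library, is given beside the ratio that does. Fractionation was visible in the inputs. Malat1, a nuclear-retained noncoding RNA, was 244-fold lower in the cytoplasmic than in the nuclear inputs per listed count, and the 13 mitochondrially encoded messengers were 14.9-fold higher at their median. Of the 15 fibroblast markers 14 were listed, while none of 9 epithelial and none of 8 leukocyte markers was. From the other marker lists, 6 of 8 adipocyte, 2 of 7 muscle, 1 of 7 endothelial and 1 of 8 neural markers were listed.

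The quantity described for each gene is a log2 ratio of ratios: the miR-29b pulldown over the miR-29b input, divided by the scrambled pulldown over the scrambled input. Positive values mean that a transcript was recovered more with miR-29b than with the scrambled mimic, after allowing for its input level. No cytoplasmic value has a replicate, so no test was made, and genes are counted at a fixed size of 2-fold. Intervals in brackets are 95% intervals for counting error only, which do not cover variation between cultures, captures or library preparations. They were computed with a smaller added count than the estimates and need not be centred on them. Levels are CPM, counts scaled to a library of fixed size, with factors from the trimmed mean of M values (TMM).

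Mimic-specific recovery was widely spread in the cytoplasm. Of 11568 genes, 2231 (19.3%) were at least 2-fold higher and 1916 (16.6%) at least 2-fold lower, with a median of 0.03 on the log2 scale and an interquartile range of 1.45. At 4-fold the counts were 482 and 297. The balance depended on the scaling: of the genes past 2-fold 53.8% were higher, against 83.3% when the authors' library totals were used and 42.1% with upper-quartile factors. The counting interval lay wholly beyond 2-fold for 1118 of the higher genes and 832 of the lower ones. In the nucleus the same ratio was narrower, with an interquartile range of 0.44 and 184 of 11361 genes (1.62%) at least 2-fold higher. Depth differed as well as fraction, and the part of each was not tested. The miR-29b pulldown over its own input was at least 2-fold higher for 1579 genes (13.6%), and the scrambled pulldown over its own input for 1211 (10.5%).

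**Figure D1:**
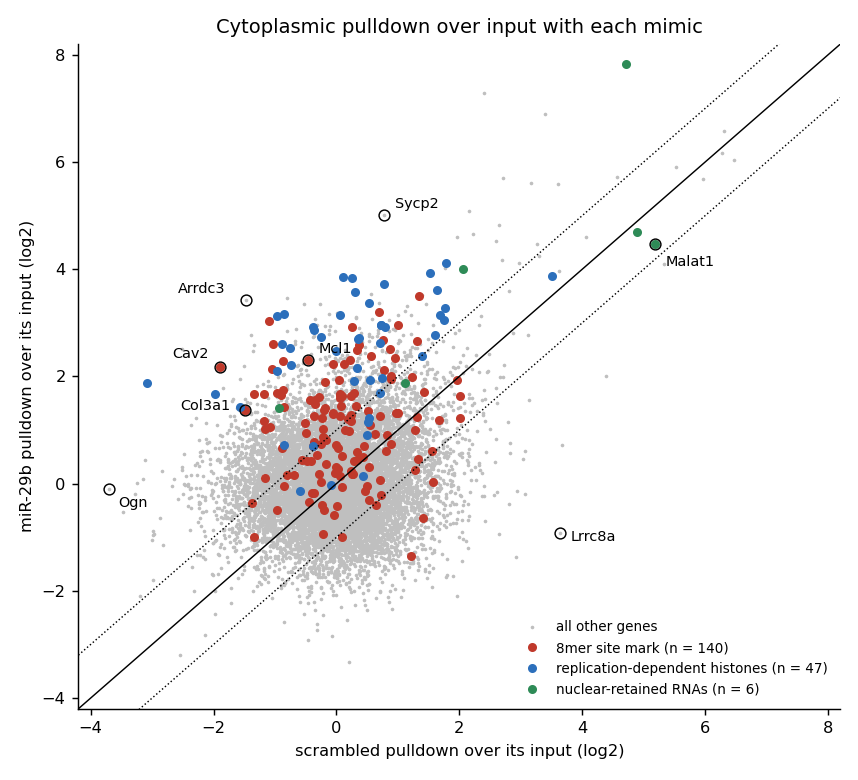
Each point is a gene, placed by the log2 ratio of the cytoplasmic scrambled pulldown to its input (horizontal axis) and of the cytoplasmic miR-29b pulldown to its input (vertical axis). The solid line marks equal recovery with both mimics and the dotted lines a 2-fold difference. Most histone points and many points with an 8mer mark lie above the upper dotted line, while nuclear-retained RNAs such as Malat1 are high with both mimics.

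Genes with predicted miR-29 sites were recovered more often. The authors' whole-cell table marks 482 of the genes as having any site, 140 as having an 8mer site and 158 with a context mark (as the column names read). Of the 140 genes with an 8mer mark, 69 (49.3%) were at least 2-fold higher and 6 were at least 2-fold lower, with a median of 0.98. Genes with the context mark had 86 of 158 (54.4%) higher and 6 lower, with a median of 1.06. Those with a site mark but neither of these had 82 of 285 (28.8%) higher and 40 lower, with a median of 0.32. The 11079 genes without a mark had 2044 (18.4%) higher and 1869 (16.9%) lower, with a median of 0.01. Over its own input the miR-29b pulldown had medians of 1.02 for context-marked genes and 0.32 for genes with another mark. The order of these groups was therefore 8mer or context mark, other mark, no mark, in the share of genes higher.

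The shift with the site marks lay in the miR-29b arm. For genes with an 8mer mark the median log2 ratio of pulldown to input was 1.07 with miR-29b and 0.06 with the scrambled mimic, and for genes without a mark both medians were close to 0 (-0.04 with miR-29b and 0.00 with the scrambled mimic). Their inputs were nearly level, with a median of -0.10 for miR-29b over scrambled. The 26 genes with an 8mer mark that were at least 4-fold higher, chosen after their values were seen, included Nrep, Cav2, Ireb2, Col4a5, Col8a1, Col3a1, Mcl1 and Tet2. In the nucleus the median for 8mer genes was 0.39, with 19 of 140 at least 2-fold higher, against 1.62% of all genes. In whole cells it was 2.22, with 105 of 140 called higher by edgeR, against 18.7% of all genes.

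**Figure D2:**
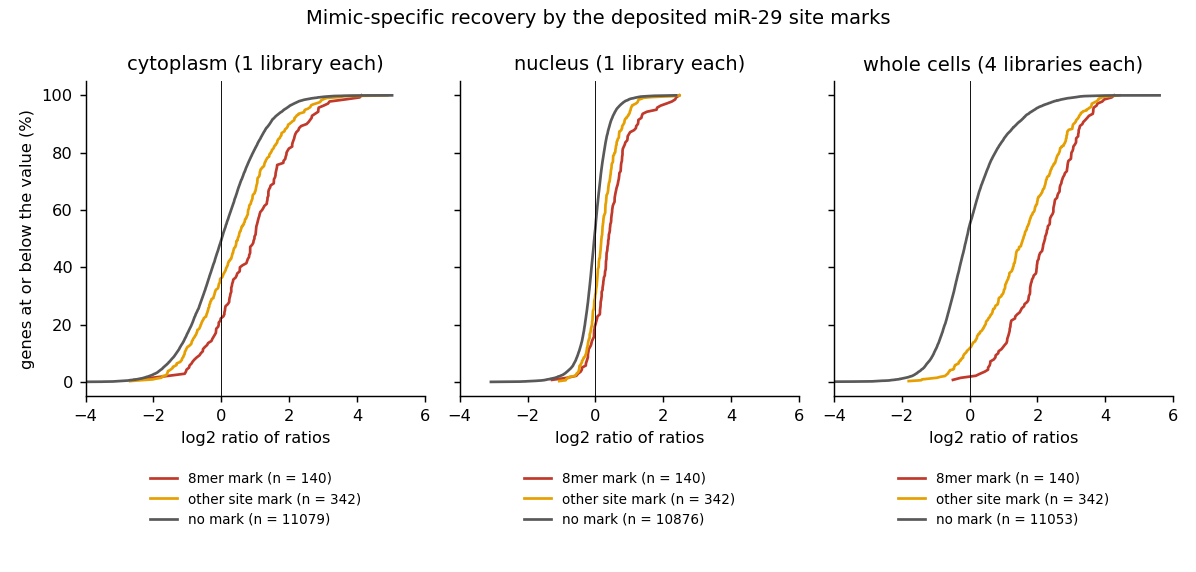
Cumulative percentage of genes (vertical axis) against the log2 ratio of ratios (horizontal axis) for genes with an 8mer mark, another site mark or no mark, in the cytoplasm (left), the nucleus (middle) and whole cells (right). Curves for marked genes lie to the right of the curve for unmarked genes in all 3 panels, with cytoplasmic medians of 0.98 for 8mer genes and 0.01 for unmarked ones.

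The 15 genes with the highest ratio under the rule for named genes ranged from 3.60 to 5.03. Arrdc3, an arrestin-like protein that directs receptors to degradation (chromosome 13, 80883384 to 80896042), had 350.2 CPM in the miR-29b pulldown against 11.7 CPM in the scrambled pulldown, with input levels of 32.3 CPM for miR-29b and 33.2 CPM for the scrambled mimic. Its log2 ratio of ratios was 4.90 [4.53 to 5.32]. In whole cells it was 1.98 ± 1.49 and not called (SE, edgeR adjusted p = 0.362, but 0.0465 with the replicate block and 1.30e-05 with replicates 1 to 3 only). Only the miR-29b pulldown stood above the inputs, and the scrambled pulldown stood below them. Arrdc3 carries the context mark and no 8mer mark.

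Cav2, a caveolin that coats small invaginations of the plasma membrane (chromosome 6, 17281185 to 17289130), had 291 CPM in the miR-29b pulldown against 17.5 CPM in the scrambled pulldown, with input levels of 64.2 CPM for miR-29b and 66.4 CPM for the scrambled mimic. Its ratio was 4.08 [3.77 to 4.42] in the cytoplasm, and in the replicated whole-cell libraries it was 3.63 ± 0.69 (SE, edgeR adjusted p = 0.00118). Acvr2a, a receptor for activins (chromosome 2, 48814109 to 48903264), had 347 CPM in the miR-29b pulldown against 22.9 CPM in the scrambled pulldown, with input levels of 57.9 CPM for miR-29b and 58.8 CPM for the scrambled mimic. That gene has no site mark, and its ratio was 3.93 in the cytoplasm and 3.62 ± 0.71 in whole cells (edgeR adjusted p = 0.00142). Cmpk1, a kinase that supplies pyrimidine nucleotides, had a cytoplasmic ratio of 3.83 [3.63 to 4.03] and a whole-cell ratio of 3.93 ± 0.37 (edgeR adjusted p = 3.14e-06).

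The other genes in this group were Nap1l3, Ccne2, Sycp2, Nrep, Zfp322a, Depdc1a, Rnd3, Ireb2, Slc40a1, Ppp1r3d and Ogn. Ccne2, a cyclin of the entry into S phase, had 156 CPM in the miR-29b pulldown against 8.16 CPM in the scrambled pulldown, with inputs of 13.9 CPM with miR-29b and 14.6 CPM with the scrambled mimic. Nap1l3 had the highest ratio, 5.03 [3.73 to 7.43], from 261 counts in the miR-29b pulldown and 2 counts in the scrambled pulldown, so its interval is wide. Ireb2, an RNA-binding regulator of iron metabolism, and Slc40a1, the cellular iron exporter, had ratios of 3.65 and 3.62. In whole cells Slc40a1 was called higher, and Ccne2 and Ireb2 were not (edgeR adjusted p = 0.279 for Ccne2 and 0.0548 for Ireb2). With the replicate block these were 0.0460 for Ccne2 and 0.00646 for Ireb2, and with replicates 1 to 3 only 3.90e-05 for Ccne2 and 5.10e-07 for Ireb2.

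Recovery in the miR-29b pulldown did not carry every one of them. For Ogn, a small matrix proteoglycan, the miR-29b pulldown (146 CPM) was close to its input (157 CPM), while the scrambled pulldown (7.96 CPM) was far under its input (108 CPM). Sycp2, a protein of meiotic chromosomes, had 111 CPM in the miR-29b pulldown against 3.18 CPM in the scrambled pulldown, and its whole-cell ratio was -0.35 (edgeR adjusted p = 0.826). Of the 15 genes, 14 were at least 2-fold higher in the miR-29b pulldown than in its input. In the scrambled pulldown 14 were under their input. These counts follow in part from the ranking, which used both ratios. A site mark was present for 5 of the 15, and 8 were called higher in whole cells. Over all genes 482 of 11568 have a site mark, and 18.7% were called higher in whole cells. Nuclear recovery was at least 2-fold higher for 3 of the 15, among which Nap1l3 (2.21) and Nrep (1.92) had the highest values.

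The 8 lowest genes were all recovered with the scrambled mimic. Lrrc8a, a subunit of the volume-regulated anion channel (chromosome 2, 30237769 to 30263790), had 7.18 CPM in the miR-29b pulldown against 201 CPM in the scrambled pulldown, with input levels of 14.0 CPM for miR-29b and 15.9 CPM for the scrambled mimic. Its ratio was -4.56 [-5.02 to -4.22] in the cytoplasm, -0.23 in the nucleus and -3.45 ± 0.24 in whole cells (edgeR adjusted p = 1.15e-06). Celf5, Gm15564, Cplx2, Metrn, Gdf11, Nacc1 and Lpcat4 followed, with ratios from -4.29 to -3.15. Each of the 8 was at least 2-fold higher in the scrambled pulldown than in its input and under its input in the miR-29b pulldown. That pattern follows in part from the ranking, which used both of these ratios. None has a site mark, and 6 were called lower in whole cells, the exceptions being Cplx2 and Gdf11. Of all genes 9.83% were called lower there.

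**Figure D3:**
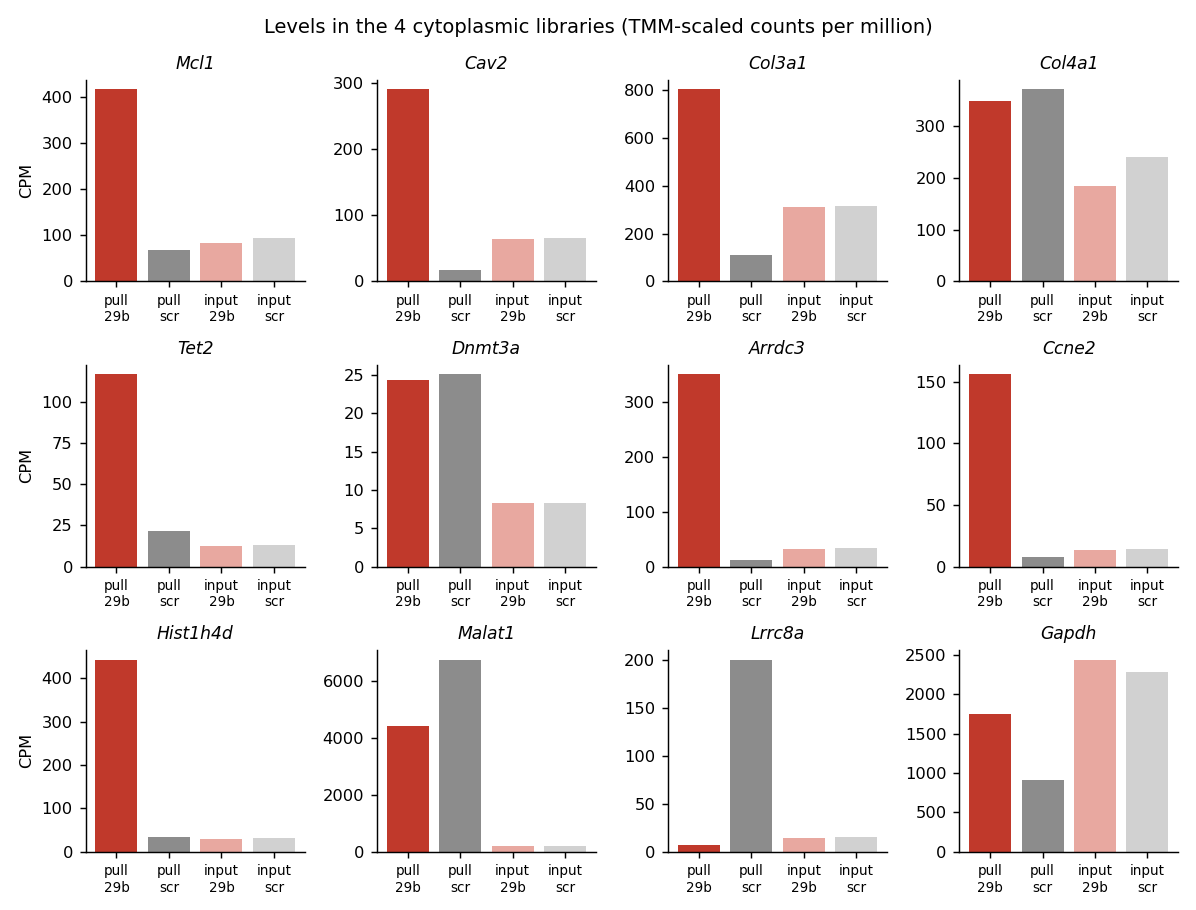
Bars give TMM-scaled CPM in the 4 cytoplasmic libraries for 12 genes, from left to right the miR-29b pulldown, the scrambled pulldown, the miR-29b input and the scrambled input, with 1 library per bar and therefore no error bar. The miR-29b pulldown is the highest bar for Mcl1 (417), Cav2 (291), Arrdc3 and Hist1h4d, while Col4a1, Dnmt3a and Malat1 are high in both pulldowns and Lrrc8a in the scrambled pulldown only.

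Reported miR-29 targets were recovered more with miR-29b, though not uniformly. Their list was drawn up with earlier results of these data known, so it is not an independent set. Of 93 on the list 78 were in the table, and 31 of them (39.7%) were at least 2-fold higher and 3 at least 2-fold lower, with a median of 0.60, against 19.3%, 16.6% and 0.03 over all genes. The median of the miR-29b pulldown over its own input was 0.73. Mcl1, which blocks apoptosis at the mitochondrion (chromosome 3, 95656944 to 95663179), had 417 CPM in the miR-29b pulldown against 68.8 CPM in the scrambled pulldown, with input levels of 84.5 CPM for miR-29b and 95.2 CPM for the scrambled mimic. Its ratio was 2.76 [2.59 to 2.95] in the cytoplasm, 1.52 in the nucleus and 4.19 ± 0.56 in whole cells (edgeR adjusted p = 6.58e-05). The miR-29b pulldown was thus far above the other 3 libraries, which lay near each other.

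Hbp1, a transcriptional repressor, had a ratio of 2.26, and Klf4, a transcription factor, 2.21. Over its own input the miR-29b pulldown gave 2.28 for Hbp1 and 2.16 for Klf4. The 3 members at least 2-fold lower were Grn, Rere and Akt2. Grn, a secreted growth factor precursor, had 48.8 CPM in the miR-29b pulldown against 343 CPM in the scrambled pulldown, and its ratio was -2.17, with -1.30 for the miR-29b pulldown over its own input. Ccnd2, a D-type cyclin, had 843 CPM in the miR-29b pulldown against 1434 CPM in the scrambled pulldown, a ratio of -0.71, while its whole-cell ratio was 2.52 ± 0.33 (edgeR adjusted p = 5.43e-05).

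Among collagens, 7 of the 17 listed (41.2%) were at least 2-fold higher and 1 (5.88%) was lower, against 19.3% and 16.6% of all genes. In the miR-29b pulldown over its own input 10 of 17 were at least 2-fold higher, with a median of 1.24, against 13.6% of all genes. The higher ones were Col4a5 (3.15), Col8a1 (2.87), Col3a1 (2.86), Col5a2 (2.57), Col1a1 (1.91), Col1a2 (1.77) and Col5a1, and the lower one was Col18a1 (-1.32). Col3a1, a fibrillar collagen of soft tissue (chromosome 1, 45311538 to 45349706), had 803 CPM in the miR-29b pulldown against 112 CPM in the scrambled pulldown, with input levels of 309 CPM for miR-29b and 315 CPM for the scrambled mimic. Col1a1, a chain of type I collagen, had 830.1 CPM in the miR-29b pulldown against 259 CPM in the scrambled pulldown. Sparc, a collagen-binding matricellular protein, and Lox, which crosslinks collagen, had ratios of 2.63 and 2.15. Over its own input the miR-29b pulldown gave 1.03 for Sparc and 0.67 for Lox.

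The type IV collagen chains of basement membranes were not alike. Col4a5 had the highest collagen ratio, whereas Col4a1 had 349 CPM in the miR-29b pulldown against 371 CPM in the scrambled pulldown, with input levels of 184 CPM for miR-29b and 239.7 CPM for the scrambled mimic, which gave a ratio of 0.29 [0.19 to 0.39]. Both pulldowns therefore lay above both inputs. Col4a2 (-0.03) and the laminin chain Lamc1 (0.24) were also near 0 in the cytoplasm, whereas in the nucleus the ratios were 2.38 for Col4a1, 2.26 for Col4a2 and 2.35 for Lamc1. In whole cells all 3 were called higher, at 3.05 for Col4a1, 2.46 for Col4a2 and 1.87 for Lamc1. Per listed count, the 17 collagens were 6.18-fold lower at their median in the cytoplasmic than in the nuclear inputs. For all genes that median was 1.57-fold lower. With 1 library per condition the difference between the fractions was not tested.

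The 3 Tet dioxygenases, which oxidise methylcytosine, had ratios of 2.52 (Tet2), 2.18 (Tet3) and 1.87 (Tet1), and were the 3 members of 17 (17.6%) at least 2-fold higher, against 19.3% of all genes. The list's median was -0.04, and 0.15 for the miR-29b pulldown over its own input. Tet2 had 117 CPM in the miR-29b pulldown against 21.9 CPM in the scrambled pulldown, with input levels of 12.3 CPM for miR-29b and 13.4 CPM for the scrambled mimic. The de novo methyltransferase Dnmt3a had 24.3 CPM in the miR-29b pulldown against 25.1 CPM in the scrambled pulldown, both above the inputs of 8.30 CPM with miR-29b and 8.31 CPM with the scrambled mimic, and its ratio was -0.04 [-0.47 to 0.38]. In whole cells Dnmt3a was called higher (2.87, edgeR adjusted p = 0.00542), and Tet1, Tet2 and Tet3 were not (adjusted p = 0.309, 0.194 and 0.0926). Those 3 results depended on the fit: with replicates 1 to 3 only the adjusted p was 0.000858 for Tet1, 8.57e-06 for Tet2 and 0.000145 for Tet3, and with the replicate block it was 0.0705, 0.0202 and 0.00685. At least 2-fold lower were 2 members, among them Mbd3 (-2.23), a subunit of a chromatin remodelling and deacetylase complex.

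In the Bcl2 family, 3 of 14 members were at least 2-fold higher (Mcl1, Bbc3 and Bmf) and 3 were lower (Bcl2l1, Bok and Bad), or 21.4% each way, near the 19.3% and 16.6% of all genes. The survival factor Bcl2l1 had 11.6 CPM in the miR-29b pulldown against 45.4 CPM in the scrambled pulldown, opposite to Mcl1. Of 21 p53 targets 5 were higher and 2 lower, with Fas, a death receptor, at 2.93. Of 20 genes of RISC and microRNA processing 3 were higher and 5 lower. Edc3, a scaffold of messenger decapping, had the highest ratio among them at 2.62, and Ago2, the slicing Argonaute, had -1.06. Deadenylases had 4 of 18 higher and 0 lower. The shares higher were 23.8% for p53 targets and 22.2% for deadenylases, against 19.3% of all genes, while the RISC and processing list had fewer higher than lower. The miR-29b pulldown over its own input had medians of 0.36 for RISC and processing, 0.35 for the Bcl2 family, 0.22 for the p53 list and 0.01 for deadenylases.

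Cell cycle genes included 14 of 35 (40.0%) at least 2-fold higher and 5 (14.3%) lower, against 19.3% and 16.6% of all genes, with a median of 0.48. In the miR-29b pulldown over its own input only 3 of 35 were at least 2-fold higher and 4 were lower, against 13.6% of all genes higher. Besides Ccne2, the higher members included Ccna2 (2.96), Bub1 (2.86), Ccnb1 (2.54), Rb1 (2.47) and Cdk2 (2.41). For Ccna2, a cyclin of S and G2 phase, the miR-29b pulldown held 151 CPM against 21.7 CPM in the scrambled pulldown, and the inputs held 84.8 CPM with miR-29b and 96.1 CPM with the scrambled mimic. The lowest member was E2f1, a transcription factor of S-phase entry, at -2.85. The median of the miR-29b pulldown over its own input was -0.12 for this list, and that of the scrambled pulldown over its input was -0.81.

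Against 19.3% of all genes higher and 16.6% lower, at least 2-fold higher and lower were 6 and 1 of 20 elastic fibre and crosslinking genes, 3 and 3 of 23 other matrix glycoproteins and proteases, and 3 and 4 of 25 TGF-beta and myofibroblast genes. Growth factor and PI3K-Akt signalling had 2 and 6 of 23, cholesterol synthesis and uptake 2 and 7 of 24, and the unfolded protein response 2 and 4 of 24. Messengers translated at the endoplasmic reticulum, outside the matrix lists, had 8 and 5 of 30, and cytosol-translated housekeeping messengers 5 and 3 of 30. The shares higher ran from 8.33% to 30.0% over these 8 lists. For several of them the miR-29b pulldown over its own input had a median on the other side of 0 from the ratio of ratios. These medians were -0.36 against 0.36 for elastic fibre and crosslinking genes, -0.14 against 0.14 for other matrix genes, -0.33 against 0.07 for TGF-beta genes, -0.50 against 0.44 for the unfolded protein response and -0.62 against 0.04 for messengers translated at the endoplasmic reticulum. For the other 3 lists they were 0.03 for growth factor signalling, -0.30 for cholesterol genes and -0.37 for housekeeping messengers. Gapdh, a glycolytic enzyme in the housekeeping list, had 1755 CPM in the miR-29b pulldown against 914 CPM in the scrambled pulldown, with input levels of 2441 CPM for miR-29b and 2282 CPM for the scrambled mimic. Both pulldowns were under both inputs for this messenger.

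**Figure D4:**
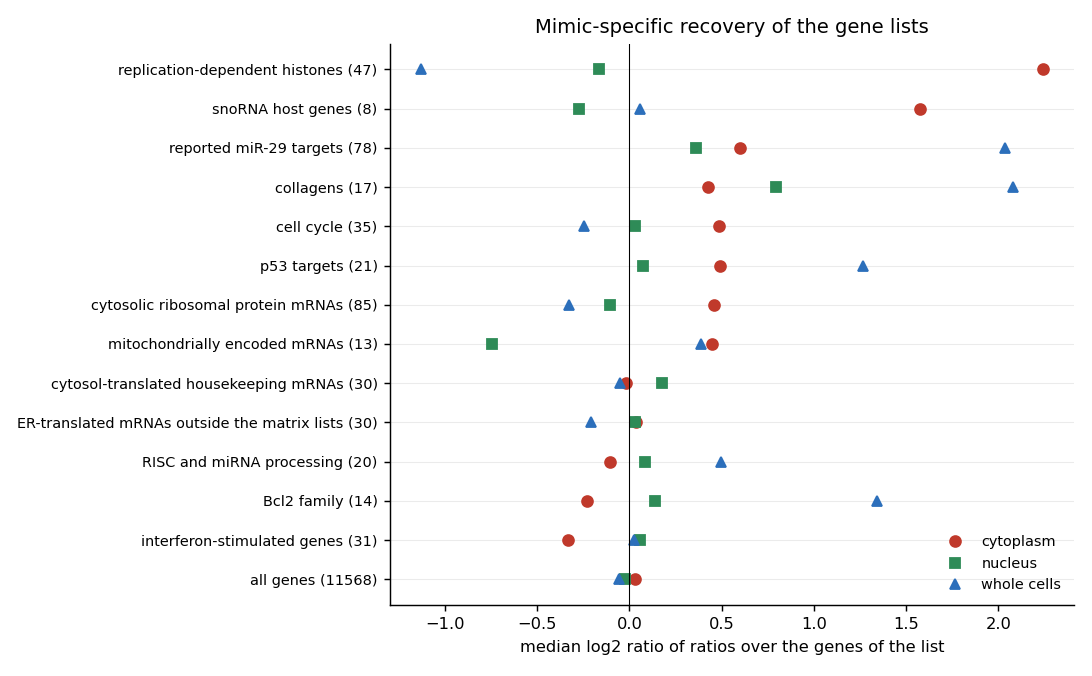
Median log2 ratio of ratios (horizontal axis) of the genes of each list (rows, with the number of genes in the cytoplasmic table) in the cytoplasm (circles), the nucleus (squares) and whole cells (triangles). Histones have medians of 2.24 in the cytoplasm, -0.17 in the nucleus and -1.13 in whole cells, and reported targets 0.60, 0.36 and 2.04.

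Histone messengers showed the highest list median in the cytoplasm. Messengers of replication-dependent histones end in a stem-loop in place of a poly(A) tail and are made in S phase. Of 47 genes with such symbols 38 (80.9%) were at least 2-fold higher with miR-29b and 0 were lower, against 19.3% and 16.6% of all genes. At least 4-fold higher were 26 of them. The median was 2.24, and 46 of 47 values were above 0. For the miR-29b pulldown over its own input the median was 2.70, with 41 of 47 at least 2-fold higher. Their summed level was 2437 CPM in the miR-29b pulldown against 593 CPM in the scrambled pulldown, with input levels of 502 CPM for miR-29b and 514 CPM for the scrambled mimic. Only the miR-29b pulldown stood far from the other 3 libraries.

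Hist1h4d, a gene for histone H4, had 444 CPM in the miR-29b pulldown against 34.4 CPM in the scrambled pulldown, with input levels of 30.5 CPM for miR-29b and 32.0 CPM for the scrambled mimic. Hist2h2bb, for histone H2B, had 442 CPM in the miR-29b pulldown against 52.9 CPM in the scrambled pulldown, with input levels of 33.2 CPM for miR-29b and 30.8 CPM for the scrambled mimic. The linker histone gene Hist1h1c was different, at 113 CPM in the miR-29b pulldown against 79.2 CPM in the scrambled pulldown, with both inputs higher than that (124 CPM with miR-29b and 119 CPM with the scrambled mimic). Histone genes are near-identical copies, so the division of reads between them is uncertain.

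In the nucleus the histone median was -0.17, with 3 of 46 genes (6.52%) at least 2-fold higher and 6 lower. Over all 11361 genes 184 (1.62%) were at least 2-fold higher there and 250 lower. The histones were above their inputs in both nuclear pulldowns, by a median of 1.02 with miR-29b and 1.17 with the scrambled mimic. In whole cells the median was -1.13 and edgeR called 0 of 47 higher and 1 lower (0 higher and 3 lower at an unadjusted p under 0.05, and 0 higher and 2 lower with DESeq2). Of all genes edgeR called 18.7% higher and 9.83% lower. The edgeR fit with the replicate block called further histone genes lower. Among them were Hist1h2bb (-3.06, adjusted p = 0.000697), Hist1h2bn (-2.42, adjusted p = 0.00175) and Hist1h2bm (-1.95, adjusted p = 0.00219). Hist1h1b, Hist1h1d, Hist1h1e, Hist1h2af, Hist1h2al, Hist1h2bl, Hist1h3a and Hist1h3b were also called lower there. Others stayed uncalled in that fit, such as Hist1h2ao (-0.51, adjusted p = 0.513) and Hist1h1c (0.27, adjusted p = 0.663). Hist1h2ae, Hist1h2ai, Hist1h2ak, Hist1h2ap, Hist1h2bc, Hist1h2be, Hist1h2bf, Hist1h2bg and Hist1h2bh were uncalled too. Over all 12915 genes tested the blocked fit called 1931 lower, against 1190 without the block. The cytoplasmic pattern rests on 1 pulldown per mimic, and its difference from whole cells was not tested.

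Of 8 genes that host small nucleolar RNAs 7 (87.5%) were at least 2-fold higher in the cytoplasm, against 19.3% of all genes. Their median was 1.58, against -0.27 in the nucleus and 0.06 in whole cells. The miR-29b pulldown over its own input had a median of 2.24, with 8 of 8 at least 2-fold higher, against 13.6% of all genes. Gas5, a host gene whose spliced RNA is short-lived, had 911 CPM in the miR-29b pulldown against 272 CPM in the scrambled pulldown, with input levels of 234 CPM for miR-29b and 211 CPM for the scrambled mimic. Snhg6 had the highest ratio of the 8, at 3.42, and was the member called higher in whole cells (3.44, edgeR adjusted p = 8.23e-05). Of 85 ribosomal protein messengers 23 (27.1%) were at least 2-fold higher and 2 (2.35%) lower, against 19.3% and 16.6% of all genes. The median of these messengers was 0.46. Both mimics recovered them above input, by a median of 1.19 with miR-29b and 0.73 with the scrambled mimic.

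Of 6 nuclear-retained RNAs in the table, 6 were at least 2-fold above their input in the cytoplasmic miR-29b pulldown, against 13.6% of all genes. In the scrambled pulldown 5 were, against 10.5% of all genes, and Tug1 was under its input there (-0.93). By the ratio of ratios 3 of 6 were at least 2-fold higher and 0 lower, against 19.3% and 16.6% of all genes, with a median of 1.35. Malat1 had 4416 CPM in the miR-29b pulldown against 6734 CPM in the scrambled pulldown, with input levels of 199.5 CPM for miR-29b and 185 CPM for the scrambled mimic. That is a log2 ratio of pulldown to input of 4.47 with miR-29b and 5.18 with the scrambled mimic. Neat1, the scaffold of paraspeckles, had 4.69 and 4.89 in the same order. Gm26917 had 7.82 with miR-29b and 4.71 with the scrambled mimic. In the nucleus, where their levels are high, the median ratio of pulldown to input for the 6 was -0.15 with miR-29b and 0.07 with the scrambled mimic. The part of nuclear RNA in the other cytoplasmic pulldown values was not tested.

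The scrambled pulldown had its own list of transcripts. By the rule for named genes, the 5 highest ratios of scrambled pulldown to input were those of Malat1 (5.18), Neat1 (4.89), 4632427E13Rik (4.57), Sfi1 (4.39) and Lrrc8a (3.64). The same transcripts differed in the miR-29b pulldown: 4632427E13Rik had 5.72 over its input and Sfi1, a centrosome protein gene, 2.00, whereas Lrrc8a had -0.93. Mitochondrial messengers were scattered, with mt-Co3, a cytochrome oxidase subunit, at 1.81 and mt-Nd5, a subunit of complex I, at -1.55. At least 2-fold higher was 1 of 13 (7.69%) and lower 1 (7.69%), against 19.3% and 16.6% of all genes. The median ratio of the mitochondrial messengers was 0.45, and that of the miR-29b pulldown over its own input was 0.52.

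The input libraries addressed whether the mimic itself altered transcript levels. At this size 31 genes (0.268%) were at least 2-fold higher and 32 (0.277%) at least 2-fold lower with miR-29b, and the interquartile range of the log2 ratio was 0.31. Bulk levels cannot tell apart fewer cells that express a gene and less RNA per cell. The reported targets had a median of -0.03 and the collagens of -0.14, with none of either list past 2-fold. Of the 4 highest genes under the rule for named genes, Phex, a peptidase of bone mineral metabolism, had 185 CPM in the miR-29b input against 69.7 CPM in the scrambled input, and Dynlt3, a dynein light chain, 185 CPM in the miR-29b input against 75.5 CPM in the scrambled input. Aspn, a small matrix proteoglycan, and Srpr, a receptor subunit for the signal recognition particle, were the others, with log2 ratios of 1.37 and 1.14.

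The whole-cell inputs give a replicated view of the same contrast. There edgeR called 7 of 12915 genes higher and 0 lower with miR-29b (360 higher and 199 lower at an unadjusted p under 0.05 among genes also in the cytoplasmic table, and 32 higher and 12 lower with DESeq2). Same-numbered inputs deviated together, and with the replicate block 10 were called higher, 6 of the 7 among them, and 1 lower (Fam49b). Zmpste24 was the one lost, with an adjusted p of 0.0543. All 7 were higher in the cytoplasmic miR-29b input too, with log2 ratios from 0.57 to 1.29, a range that 2.97% of all genes reached or passed. They were Dynlt3 (1.29), Srpr (1.14), Dok4 (1.11), Zmpste24 (0.96), D1Ertd622e (0.96), Adh7 (0.80) and Dhcr7 (0.57), named here after their values were seen, apart from Dynlt3 and Srpr. Zmpste24 matures lamin A and Dhcr7 carries out the last step of cholesterol synthesis. In the whole cells Dynlt3 had an input log2 ratio of 1.01 (edgeR adjusted p = 0.00549), and it alone of the 7 stayed under 0.05 in all 23 alternatives.

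Interferon-stimulated genes were lower in the miR-29b input. The log2 ratio was under 0 for 30 of 31 such genes, with a median of -0.50, and 2 were at least 2-fold lower: Cxcl10, a chemokine (-1.97, from 34 counts in the miR-29b input and 177 in the scrambled input), and Rsad2, an antiviral radical-SAM enzyme (-1.54). Over all 11568 genes the input ratio was above 0 for 5778, and 0.277% were at least 2-fold lower. Ifit1, which binds foreign RNA, had 548 CPM in the miR-29b input against 912 CPM in the scrambled input. The nuclear inputs had a median of -0.49 for the same list. In whole cells the median was -0.36, and edgeR called 0 of 31 in either direction (0 at an unadjusted p under 0.05 and 0 with DESeq2). Recovery in the pulldowns was mixed: 3 (9.68%) were at least 2-fold higher and 8 (25.8%) lower, against 19.3% and 16.6% of all genes. The list's median was -0.33, and it was above 0 only when the libraries were scaled by the authors' totals, which raise all genes. The miR-29b pulldown over its own input had a median of 0.03 for the list.

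Whole cells provide the replicated counterpart of the mimic-specific ratio, from 16 libraries that share none with the cytoplasm. The labels do not state whether libraries of one group are separate cultures, and the p-values therefore cover no more than library-to-library spread, in part possibly technical. Among 11535 genes in both tables edgeR called 2157 higher (18.7%) and 1134 lower (9.83%). Of 2220 genes at least 2-fold higher in the cytoplasm 793 were called higher in whole cells (35.7%) and 20 lower, and those 793 were 36.8% of the genes called higher. Of 1915 genes at least 2-fold lower in the cytoplasm 444 were called lower in whole cells (23.2%) and 98 higher, and those 444 were 39.2% of the genes called lower. Across genes, which are not independent replicates, Pearson's r between the cytoplasmic and the whole-cell ratio was 0.42, and 0.51 among the 3354 genes with at least 2000 counts in the 4 cytoplasmic libraries. Between cytoplasm and nucleus it was -0.03.

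**Figure D5:**
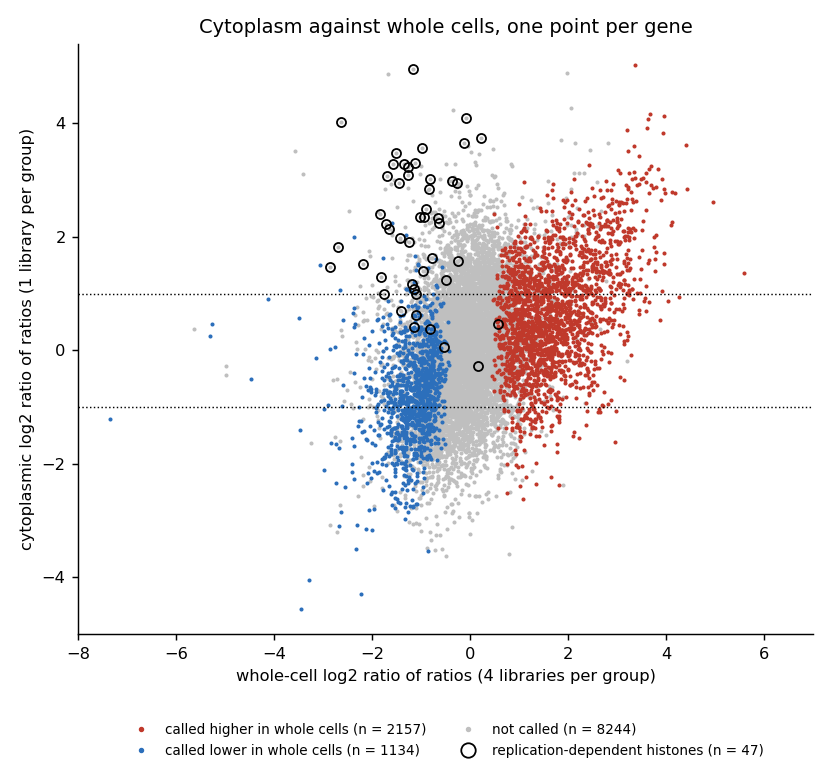
Each point is a gene, placed by its log2 ratio of ratios in whole cells (horizontal axis, 4 libraries per group) and in the cytoplasm (vertical axis, 1 library per group), with colours for the whole-cell edgeR calls and circles for histones. Dotted lines mark 2-fold in the cytoplasm. Genes called higher in whole cells lie more often above the upper line (793 of 2157), and histones lie high in the cytoplasm and mostly to the left of 0 in whole cells.

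The authors' deposited table carries a score per gene and a mark for the cytoplasm. The mark is set for 236 genes, all with a score above 4, and each of these was at least 2-fold higher by the ratio of ratios, which draws on the same libraries. Of the 236 genes, 39 have a site mark and 91 of the 235 tested were called higher in whole cells. Over all genes 482 of 11568 have a site mark, and 18.7% of 11535 were called higher in whole cells. In the authors' deposited table Mcl1, Cav2, Col3a1, Tet2 and Hist1h4d carry the mark, with scores from 4.71 (Col3a1) to 16.4 (Hist1h4d). Col1a1, Sparc, Lox and Col1a2 do not carry it in the authors' deposited table, with scores of 1.66, 1.49, 1.00 and 0.68. The members just inside and just outside the authors' threshold had scores of 4.02 and 4.00.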

How the data were processed

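The deposited tables hold whole-number counts per gene and library. The submitters' processing notes name STAR 2.3.0 as a tool and mm10 as a genome build; the sources used here do not state how reads were assigned to genes or whether strand was used. The authors' deposited CPM values equal the count plus 1 over a total larger than the sum of the listed counts; they served only to recover those totals. The authors' deposited score and mark for the cytoplasm come from a formula that was not recovered. Both fractions were read from the same table; 11 repeat lines were dropped, which left 11568 genes, all with at least 20 counts in the 4 libraries.

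Counts were scaled by TMM over the 4 cytoplasmic libraries, and log2 CPM used a prior count of 5 (edgeR 4.0.16, R 4.3.3). Ratios of ratios were counted at 2-fold without a test. The 16 whole-cell libraries were tested with edgeR's quasi-likelihood test (filterByExpr, TMM, group means, Benjamini-Hochberg adjustment over 12915 genes, threshold 0.05, two-sided). The scripts were tested on simulated data.

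Named genes were the 15 highest and 8 lowest ratios with at least 50 counts in the higher pulldown and in both inputs together and a pulldown-to-pulldown ratio on the same side of 0, the 4 highest and 4 lowest input ratios with at least 200 counts, the 5 highest scrambled ratios, the 4 most counted members of each list, and 35 fixed genes, of which 2 were not in the table. An official symbol, meaning a current symbol in the RefSeq table of GRCm38.p6, was required (10666 genes); coordinates are from that table. Further list members were named after their values were seen. The members, rules and 22 gene lists were chosen with earlier results of these data known. Alternatives were prior counts of 1 and 20, RLE and upper-quartile factors, TMM over all 8 fraction libraries, the authors' totals, no factors, no filter or 100 counts, and 4-fold; for whole cells, DESeq2 1.42.0, other factors and filters, the replicate number as a block, replicates 1 to 3, and leaving out each library.

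Same-numbered whole-cell libraries deviated together in every pair among the miR-29b pulldown and both inputs (correlations of 0.332 to 0.717), so the numbers were taken to pair the inputs, and the blocked value stands beside that comparison. Pairs with a scrambled pulldown had -0.0962 to 0.365, so the mimic-specific comparison, which uses it, was not taken as paired; its printed values are without the block unless stated.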

Additional observations from a re-analysis of the deposited data

Results flagged for a closer look

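Genes named in the report that were at least 2-fold in opposite directions in the cytoplasm and the nucleus stood out, with 1 library per condition and no test of the difference. Gm15564, an antisense RNA whose reads cannot be separated from its partner's without strand, had -4.05 in the cytoplasm and 2.38 in the nucleus, where its input ratio of miR-29b over scrambled was -2.03. The mitochondrial messenger mt-Co3 had 1.81 in the cytoplasm and -1.29 in the nucleus. Among histone genes, Hist1h4a had 2.84 in the cytoplasm and -1.10 in the nucleus, Hist2h2ac 3.24 and -1.45, Hist1h3a 1.91 and -1.15, and Hist1h3e 2.95 and -1.12. Over all 11361 genes with both values, 42 were at least 2-fold higher in the cytoplasm and lower in the nucleus, 27 the other way round, 58 higher in both and 61 lower in both.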

How the results depend on the processing

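With the authors' library totals the median ratio of ratios of all genes was 0.55, against 0.03, and 3921 genes were at least 2-fold higher and 788 lower (83.3% of those past 2-fold were higher, against 53.8%); upper-quartile factors gave a median of -0.14 and 42.1% higher. At 4-fold the counts were 482 and 297. The miR-29b pulldown over its own input, an alternative chosen after seeing the data, had 1103 genes at least 2-fold lower. For the inputs, a prior count of 1 gave 70 genes higher and 58 lower, a prior count of 20 gave 6 and 9, 4-fold gave 0 and 4, and a filter of 100 counts left 18 lower. For the scrambled pulldown over input, the authors' totals gave 160 higher and 5374 lower, no factors 684 and 2135, and 4-fold 133 and 100. The medians of the site marks, reported targets, histones, collagens, cell cycle genes and small nucleolar RNA hosts were above 0 under every scaling, and no named ratio of at least 2-fold changed sign. Sizes were less stable: of 4099 values of named genes under an alternative, 656 moved beyond counting error.

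In whole cells the mimic-specific comparison called 2192 genes higher and 1190 lower. The fit with the replicate block called 2599 and 1931, which included 2190 and 1186 of those called without it, replicates 1 to 3 only 3127 and 2457, and upper-quartile factors 2400 lower. Leaving out each library gave 1925 to 2740 higher and 783 to 1449 lower, the lowest without replicate 3 of the scrambled input. For the inputs, the replicate block called 10 higher and 1 lower, replicates 1 to 3 only 82 and 95, and DESeq2 32 and 12; leaving out each library gave 1 to 11 higher and 0 to 2 lower. The cause was not tested. Depth limits the cytoplasm most in the scrambled pulldown, with a median of 78 counts per gene, and counting error was 0.23 (log2 SE) at the median.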

Other observations

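Transcript classes differed in the cytoplasmic pulldowns in ways the lists did not cover. Of 673 pseudogenes in the deposited annotation, 209 (31.1%) were at least 2-fold higher by the ratio of ratios and 44 (6.54%) lower. Over all genes these shares were 19.3% and 16.6%. The median of the pseudogenes was 0.49, against medians of -0.20 in the nucleus and -0.53 in whole cells. Their miR-29b pulldown over its own input had a median of 0.18 and the scrambled pulldown over its input one of -0.34. Of 100 long intergenic noncoding RNAs 32 were higher and 12 lower, with a median of 0.45. These RNAs were above input in both pulldowns, by a median of 0.87 with miR-29b and 0.38 with the scrambled mimic. Protein-coding genes, 10630 in number, had a median of 0.00, with 1939 higher and 1845 lower. Reads of pseudogenes can be shared with their parent genes.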
